A study of Mus musculus with 14 samples.

Results

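The mitosis genes described here are 35 mouse genes, chosen by name, whose products carry a cell from entry into mitosis to its division into daughter cells. All 35 were found in a table of 55487 genes measured by bulk RNA sequencing, and all 35 were among the 16876 genes with enough reads to test. The libraries were made from ureteric bud cells of the embryonic mouse kidney. The ureteric bud is the branching epithelium that forms the collecting ducts. The study asked which pathways are disturbed in this epithelium when its cells lose their centrosomes.

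There were 4 groups, named here as the labels name them. Cep120 KO (5 libraries, numbered 2, 4, 5, 6 and 7) is labelled as a deletion of Cep120, a centriole protein needed to build centrosomes, in cells that carry the Hoxb7-Cre transgene. Controls of the Cep120 line (3 libraries) have the genotype label WT, although their titles read het. Pkd1 KO (3 libraries) is labelled as a deletion of the gene of polycystin-1, the large membrane protein mutated in dominant polycystic kidney disease, in the same Cre lineage. Controls of the Pkd1 line (3 libraries) again have the genotype label WT and titles that read het. Hoxb7-Cre also makes GFP in the ureteric bud lineage, and GFP was the gate by which cells were sorted, so the sort follows the transgene and not the deletion itself. The kidneys were taken at E13.5, an early stage of ureteric branching. Nothing in the labels tells whether 2 replicates are 2 embryos, 2 litters or pooled tissue, so each p-value is set against differences between libraries that could be technical.

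Mitosis begins when cyclin B binds the kinase Cdk1. Chromosomes condense, microtubules from the spindle poles attach to them at the kinetochores, and motor proteins of the kinesin family slide, carry and shorten those microtubules. The spindle checkpoint holds back the anaphase-promoting complex until every kinetochore is attached. That complex then marks cyclin B and securin for destruction, sister chromatids part, and a contractile ring divides the cell. Centrosomes are the usual source of spindle microtubules, although a spindle can also be assembled without them, around the chromosomes and with help from Tpx2. In the ureteric bud, most division takes place at the growing tips. Many mitosis genes are switched on together in G2 through short promoter elements, the cell cycle genes homology region (CHR), which the DREAM and MuvB complexes bind, and the CCAAT box, which NF-Y binds.

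Those elements were looked for in the RefSeq promoters of build GRCm38.p6, from 250 bases before to 50 bases after each gene's start. A promoter was listed for 31 of the 35 mitosis genes (not for Kif20a, Aurkb, Incenp and Tpx2). The CHR was searched as TTTGAA and the CCAAT box as CCAAT, on both strands. CCAAT ends with the letter that TTTGAA begins with, so matches can share bases, as can CCAAT and its reverse complement. TTTGAA was present in 24 of the 31 promoters (77.4%), against 20.2% of the promoters of 27025 genes. CCAAT was likewise present in 24 (77.4%), against 41.1% of all promoters. Both were present in 21 promoters (67.7%), against 7.97% of all. A match shows that the letters are there, not that a factor binds. The 4 promoters shown here span the outcomes described below, Mki67 and Kif11 for genes that were higher in Cep120 KO, Cdk1 for a gene that was not called and Birc5 for the gene that was lower. Each is the 250 bases before the start of the gene, 5′ to 3′ on the strand of the gene, with every match in capitals. TTTGAA or its reverse complement TTCAAA marks the CHR, and CCAAT or its reverse complement ATTGG marks the CCAAT box.
Mki67 (chr7:135716380-135716629, minus strand): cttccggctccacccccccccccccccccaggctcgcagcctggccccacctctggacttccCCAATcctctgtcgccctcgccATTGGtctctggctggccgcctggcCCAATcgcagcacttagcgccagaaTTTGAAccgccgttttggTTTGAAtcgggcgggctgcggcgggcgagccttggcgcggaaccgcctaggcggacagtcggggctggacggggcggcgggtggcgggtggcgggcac
Kif11 (chr19:37376132-37376381, plus strand): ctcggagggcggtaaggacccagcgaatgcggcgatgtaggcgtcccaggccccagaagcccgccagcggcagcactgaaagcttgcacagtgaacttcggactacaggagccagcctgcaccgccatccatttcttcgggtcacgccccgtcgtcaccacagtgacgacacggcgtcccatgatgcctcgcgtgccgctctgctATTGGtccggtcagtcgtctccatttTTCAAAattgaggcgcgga
Cdk1 (chr10:69352913-69353162, minus strand): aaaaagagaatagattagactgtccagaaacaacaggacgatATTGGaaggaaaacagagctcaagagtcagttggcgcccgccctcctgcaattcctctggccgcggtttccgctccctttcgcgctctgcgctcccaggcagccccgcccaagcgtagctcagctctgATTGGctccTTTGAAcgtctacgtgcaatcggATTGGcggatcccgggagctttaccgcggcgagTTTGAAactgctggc
Birc5 (chr11:117848987-117849236, plus strand): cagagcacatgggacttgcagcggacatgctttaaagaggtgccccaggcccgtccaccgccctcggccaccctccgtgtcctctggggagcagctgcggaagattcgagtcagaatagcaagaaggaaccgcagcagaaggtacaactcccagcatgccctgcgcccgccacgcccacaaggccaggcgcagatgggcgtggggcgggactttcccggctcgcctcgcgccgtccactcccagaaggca
The Mki67 stretch holds 2 CHR and 3 CCAAT matches, that of Kif11 holds 1 of each, and that of Cdk1 holds 2 CHR and 3 CCAAT matches. The Birc5 stretch holds neither string.

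The libraries held 11347657 to 27967596 counts. The kit used, SMARTer Ultra Low, copies full-length RNA and does not keep the strand. Cep120 reads did not bear out the Cep120 KO label: they were 7.87 to 21.2 CPM (counts scaled to library size) in Cep120 KO, against 6.41 to 10.6 CPM in its controls (log2 fold change 0.83, SE 0.31, edgeR adjusted p = 0.0832). Pkd1 reads were 2.39 to 2.68 CPM in Pkd1 KO, against 3.34 to 4.6 CPM in its controls, without overlap but not called (log2 fold change -0.65, SE 0.43, edgeR adjusted p = 1). Both are counts over the whole gene, in which reads from outside a deleted part are included, so loss of either gene was not shown here, and each direction given below is that of the labels. Cep120 KO libraries 4 to 7 stood apart from the other 10. In them the longest 10% of genes lay above the shortest 10% by 1.00 to 1.35 (log2, relative to the average of all control libraries). In the other 10 this difference was -0.27 to 0.41. The same difference between the 10% of genes with the highest and the lowest GC content was 0.41 to 1.22, against -0.16 to 0.13. Ureteric bud markers, 12 genes summed, came to 1350 and 1930 CPM in Cep120 KO libraries 6 and 7 and to 3340 to 3850 CPM in the other 12 libraries. Nephron progenitor markers, 6 genes summed, came to 761 and 577 CPM in libraries 6 and 7, against 26.4 to 63.6 CPM in the others, and Six2, the defining gene of those progenitors, to 127 and 86.1 CPM, against at most 1.53 CPM. Macrophage and leukocyte markers, 6 genes summed, were 17.5 to 21.5 CPM in Cep120 KO and 52.7 to 64.3 CPM in its controls. Erythroid markers, 5 genes summed, were 2.23, 47.7, 65.6, 398 and 325 CPM in Cep120 KO libraries 2, 4, 5, 6 and 7, against 207, 4120 and 1370 CPM in its controls (4.42 to 1820 CPM in Pkd1 KO, against 109 to 2010 CPM in its controls). Stroma markers, 5 genes summed, were 4.46 to 79.4 CPM in Cep120 KO and 2.94 to 35.6 CPM in its controls, and endothelium markers, 5 genes summed, 0.0656 to 41.7 CPM and 2.47 to 8.21 CPM. No marker of these lists was under 0.1 CPM in every library of a group. The part that length, GC content or these cells play in the results below was not tested, and in bulk RNA a change in the number of dividing cells cannot be told apart from a change in RNA per cell. Libraries 4 and 5 resembled each other most (chi-square of 4.72 per gene, against 13.2 to 330 for other pairs of 1 group). They still differed by more than sampling noise and were kept as 2 samples.

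In control cells the mitosis genes spanned a wide range of levels. Compared per transcript length, in length-corrected TPM averaged over the 6 controls of both lines, Cdk1 stood highest at 278 TPM (248 to 306), followed by Ube2c at 212 TPM, Ccnb1 at 193 TPM, Birc5 at 193 TPM and Bub3 at 183 TPM. The ranges of Ccnb1 (156 to 223 TPM) and Birc5 (179 to 210 TPM) overlapped with each other and with that of Ube2c (186 to 254 TPM). At the low end were Cenpf at 2.80 TPM, Kif4 at 1.44 TPM, Aspm at 1.15 TPM, Cenpe at 0.883 TPM and Mki67 at 0.685 TPM. Mki67, whose protein Ki-67 is the standard stain for cycling cells, had the lowest mean of the 35, but its range (0.339 to 0.943 TPM) overlapped with that of Cenpe (0.509 to 1.08 TPM).

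In Cep120 KO against its controls, 10 of the 35 mitosis genes were called higher and 1 was called lower. A gene was called at an adjusted p under 0.05 (edgeR quasi-likelihood test, Benjamini-Hochberg over all genes tested). Over all 16876 genes, 14.7% were called, 8.4% higher and 6.26% lower. The genes that rose were Mki67, Cenpe, Incenp, Cenpf, Kif4, Tpx2, Hmmr, Kif23, Top2a and Kif11, and the gene that fell was Birc5. The median log2 fold change was 0.46 over the mitosis genes and 0.12 over all genes tested, with 22 mitosis genes above 0 and 13 below. The calls depended on single libraries: between 0 and 21 mitosis genes were called when 1 library was left out. Dropping library 2 gave 21 (33.9% of all genes called), and dropping library 4 or library 5 gave 6 each (9.11 and 7.65%). No mitosis gene was called once Cep120 KO library 6 (0.0119%), library 7 (0.0474%) or control 1, 2 or 3 of the line (0.0119, 0.0415 and 0.0178%) had been dropped. A fit of the 2 Cep120 groups alone called 0 mitosis genes and 0% of all genes (edgeR, smallest adjusted p of a mitosis gene 0.139). With DESeq2 size factors edgeR called 11 (14.6%), and with no filter on low counts it called 10 (7.15%). Other tools called more, 13 with DESeq2 (24.9% of all genes), 14 with limma-trend on the deposited log2 values (18.9%) and 24 with limma-voom, which gives less weight to libraries that stand apart (39.5%).

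Library 2 stood with the controls for most of the mitosis genes. Of the 35 genes, 19 lay within the range of the 3 controls in library 2 (43.4% of all genes did), 8 lay above it and 8 below. In libraries 4 to 7, all 4 values lay above every control for 13 mitosis genes (20.7% of all genes) and below every control for 5 (18.2%). The 13 were Cenpf, Ndc80, Kif11, Kif23, Kif4, Cenpe, Incenp, Tpx2, Hmmr, Nusap1, Aspm, Mki67 and Top2a, and the 5 were Ccnb1, Cdk1, Bub3, Mad2l1 and Birc5. Kif11 was the only mitosis gene with all 5 KO libraries above all 3 controls (6.41% of all genes), and none had all 5 below (8.75%). The median of the 35 genes relative to the controls was -0.01 (log2) in library 2, 0.62 and 0.70 in libraries 4 and 5, and 0.29 and 0.43 in libraries 6 and 7. In the 9 other libraries it was -0.19 to 0.11.

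**Figure D1:**
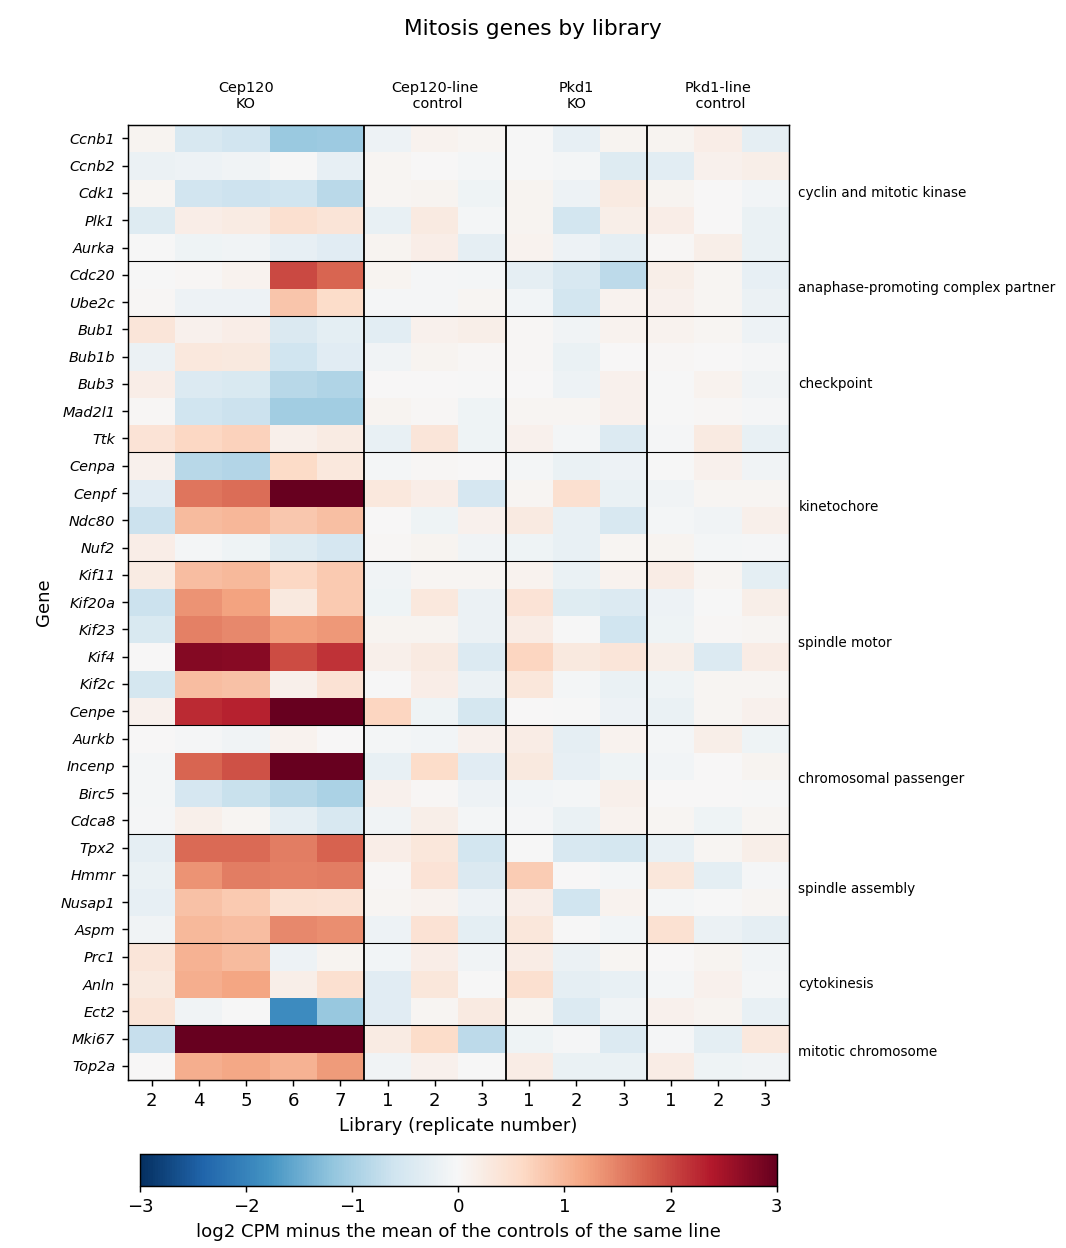
Level of each mitosis gene (rows, grouped by role) in each of the 14 libraries (columns), as log2 CPM minus the mean of the controls of the same line; the color scale stops at -3 and 3, so darker values may lie beyond it. Cep120 KO library 2 is pale like the controls, libraries 4 to 7 are dark red for Mki67, Kif4, Cenpe, Incenp and Cenpf, and the Pkd1 KO columns are pale throughout.

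Of the 6 spindle motors, 4 were called higher in Cep120 KO and none lower, with a median log2 fold change of 0.94 (0.46 to 3.01). Cenpe is the kinesin that carries chromosomes to the spindle equator from its seat at the kinetochore (ENSMUSG00000045328, chromosome 3, 135212537 to 135273611, GRCm38). It was read at 7.01, 30.6, 32.5, 112 and 92.9 CPM in Cep120 KO libraries 2, 4, 5, 6 and 7, against 10.1, 5.91 and 4.48 CPM in controls 1, 2 and 3. Library 2 lay among the controls, libraries 4 and 5 stood about alike above them, and libraries 6 and 7 stood higher still. The log2 fold change was 3.01 (SE 0.69, edgeR adjusted p = 0.029). Kif4, a kinesin of the chromosome arms and the spindle midzone, had 5.83, 39.8, 38.9, 22.7 and 26.5 CPM in Cep120 KO libraries, against 6.46, 7.02 and 4.30 CPM in controls. Its order was the other one, with libraries 4 and 5 above 6 and 7, and its log2 fold change was 2.17 (SE 0.48, edgeR adjusted p = 0.029). Exons of Kif4 share 15.1% of their bases with Pdzd11 on the opposite strand, and reads within the shared part cannot be told apart by strand.

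Kif23, the kinesin of the centralspindlin complex that marks the cleavage plane, had 16.3, 63.9, 61.2, 52.2 and 54.7 CPM in Cep120 KO libraries, against 23.8, 23.8 and 19.6 CPM in controls. Library 2 lay below every control and the other 4 lay above all of them (log2 fold change 1.15, SE 0.35, edgeR adjusted p = 0.0427). Kif11, the plus-end motor that pushes spindle poles apart (chromosome 19, 37376403 to 37421859, GRCm38), had 25.9, 41.6, 42.7, 33.5 and 37.8 CPM in Cep120 KO libraries, against 20.1, 22.7 and 22.5 CPM in controls. The groups did not overlap, library 2 being the closest to the controls. The log2 fold change of Kif11 was 0.74 (SE 0.19, edgeR adjusted p = 0.0319). Kif20a, a cytokinesis kinesin, and Kif2c, which shortens microtubules at the centromere, were not called, with log2 fold changes of 0.74 (SE 0.36) and 0.46 (SE 0.27). Both were highest in libraries 4 and 5, Kif20a at 202 and 183 CPM and Kif2c at 111 and 107 CPM. Kif20a shares 29.3% of its exon bases with Cdc23 on the opposite strand.

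Of the 4 subunits of the chromosomal passenger complex, which corrects faulty attachments and then guides cytokinesis, 1 was called higher and 1 lower. Incenp, the scaffold of the complex (chromosome 19, 9872296 to 9899551, GRCm38), had 5.44, 19.2, 21.7, 68.7 and 75.2 CPM in Cep120 KO libraries, against 4.82, 8.38 and 4.48 CPM in controls. Library 2 lay among the controls and libraries 6 and 7 stood far above the rest. The log2 fold change was 2.69 (SE 0.67, edgeR adjusted p = 0.0305). Birc5, or survivin, the small subunit that docks the complex at the centromere (chromosome 11, 117849251 to 117855743, GRCm38), had 183, 135, 122, 107 and 99.6 CPM in Cep120 KO libraries, against 210, 197 and 173 CPM in controls. Libraries 4 to 7 lay below every control and library 2 lay among them (log2 fold change -0.58, SE 0.18, edgeR adjusted p = 0.0469). The kinase Aurkb and the fourth subunit Cdca8, or borealin, were not called, with log2 fold changes of -0.00 (SE 0.14) and -0.10 (SE 0.16). Aurkb ranged from 93.2 to 107 CPM in Cep120 KO and from 94.8 to 109 CPM in controls.

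**Figure D2:**
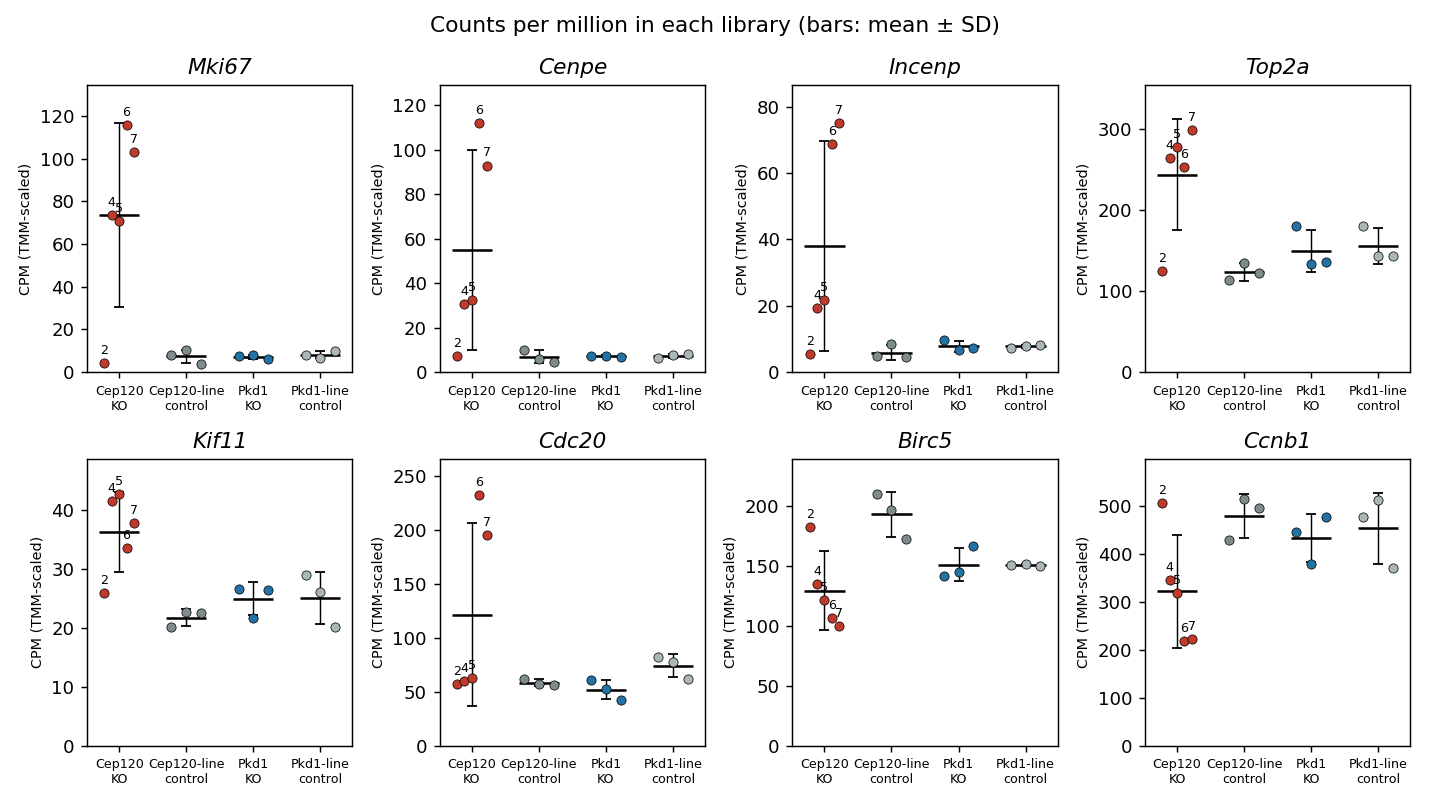
CPM of 8 mitosis genes in each library (points, with Cep120 KO libraries numbered), by group, with the group mean (line) and SD (bars); each axis starts at 0. Cep120 KO libraries 6 and 7 lie highest for Mki67, Cenpe, Incenp and Cdc20, Kif11 is the panel in which all 5 Cep120 KO points lie above the controls of the line, and Birc5 and Ccnb1 lie below them in libraries 4 to 7.

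The remaining calls came from the mitotic chromosome, spindle assembly and kinetochore genes. Mki67 coats mitotic chromosomes and keeps them apart (ENSMUSG00000031004, chromosome 7, 135689784 to 135716361, GRCm38). It had 4.26, 73.5, 70.9, 116 and 103 CPM in Cep120 KO libraries, against 8.11, 10.1 and 3.93 CPM in controls. Library 2 lay among the controls at 65 reads, while libraries 4 to 7 held 1378 to 3229 reads. Its log2 fold change of 3.31 was the largest of the 35 (SE 0.73, edgeR adjusted p = 0.029). Top2a, the enzyme that untangles sister DNA strands, had 125, 264, 278, 254 and 299 CPM in Cep120 KO libraries, against 114, 135 and 122 CPM in controls. Library 2 again lay among the controls, and the other 4 libraries lay close together at about the same height above them (log2 fold change 0.98, SE 0.24, edgeR adjusted p = 0.0305).

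Of the spindle assembly genes, 2 of 4 were called higher, and all 4 had positive fold changes. Tpx2, which starts microtubules near chromosomes and activates Aurora A, had 26.2, 104, 103, 92.0 and 108 CPM in Cep120 KO libraries, against 36.7, 40.5 and 21.8 CPM in controls. Libraries 4 to 7 agreed closely and library 2 lay among the controls (log2 fold change 1.39, SE 0.38, edgeR adjusted p = 0.0327). Hmmr, a spindle protein that works with Tpx2, had 12.7, 37.1, 42.5, 42.0 and 42.3 CPM in Cep120 KO libraries, against 14.9, 19.3 and 10.7 CPM in controls, with the same pattern (log2 fold change 1.24, SE 0.37, edgeR adjusted p = 0.0408). Aspm, which holds microtubule ends together at the spindle pole and is known for its role in brain size, missed the threshold at 1.00 (SE 0.33, edgeR adjusted p = 0.0574). Nusap1, a microtubule bundling protein, did so at 0.50 (SE 0.24, edgeR adjusted p = 0.154).

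Among the 4 kinetochore genes Cenpf alone was called. Cenpf, a large protein of the outer kinetochore (chromosome 1, 189640606 to 189688086, GRCm38), had 9.11, 35.6, 37.6, 101 and 94.0 CPM in Cep120 KO libraries, against 14.4, 13.3 and 8.16 CPM in controls. Its steps from library 2 to 4 and 5 and on to 6 and 7 were like those of Cenpe, and its log2 fold change was 2.21 (SE 0.58, edgeR adjusted p = 0.0319). Ndc80 and Nuf2 pair in the complex that grips microtubules, and their fold changes had opposite signs, neither being called. Ndc80 had 14.6, 44.0, 46.0, 40.5 and 42.8 CPM in Cep120 KO libraries, against 22.8, 20.9 and 25.2 CPM in controls (log2 fold change 0.71, SE 0.31, edgeR adjusted p = 0.123). Nuf2 had 62.9, 52.8, 50.7, 42.1 and 38.8 CPM in Cep120 KO libraries, against 56.3, 58.5 and 50.9 CPM in controls (log2 fold change -0.16, SE 0.16, edgeR adjusted p = 0.523). Cenpa, the histone that marks centromeres, was low in libraries 4 and 5 at 56.3 and 54.1 CPM and high in libraries 6 and 7 at 149 and 125 CPM, against 97.4 to 102 CPM in controls, so that its mean log2 fold change was -0.02 (SE 0.28).

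No gene of the cyclin and kinase, anaphase-promoting complex, checkpoint or cytokinesis roles was called with edgeR in Cep120 KO. At an unadjusted p under 0.05, 18 of the 35 mitosis genes passed, against 33.7% of all genes, and 5 of the 18 had these roles (Ccnb1, Cdk1, Cdc20, Mad2l1 and Anln). The cyclin Ccnb1 had 506, 345, 318, 219 and 222 CPM in Cep120 KO libraries, against 428, 514 and 496 CPM in controls (log2 fold change -0.57, SE 0.24, edgeR adjusted p = 0.116). Its partner Cdk1 had 307, 200, 191, 195 and 170 CPM in Cep120 KO libraries, against 306, 314 and 269 CPM in controls (log2 fold change -0.48, SE 0.19, edgeR adjusted p = 0.0882). Mad2l1, the checkpoint protein that binds Cdc20, had 177, 115, 110, 83.7 and 84.3 CPM in Cep120 KO libraries, against 183, 178 and 159 CPM in controls (log2 fold change -0.60, SE 0.21, edgeR adjusted p = 0.0626). In all 3, library 2 lay among the controls and libraries 4 to 7 lay below every control.

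The other cyclin and kinase genes had smaller fold changes in Cep120 KO, none of them called. Ccnb2, the B-type cyclin found at the Golgi, and the kinases Aurka, of the spindle poles, and Plk1, of poles, kinetochores and midzone, had log2 fold changes of -0.13 (SE 0.15), -0.18 (SE 0.16) and 0.19 (SE 0.22). Checkpoint values were near 0 for Bub1 at 0.01 (SE 0.19) and Bub1b at -0.05 (SE 0.20). They were -0.42 (SE 0.21) for Bub3, which brings that pair to kinetochores, and 0.41 (SE 0.21) for Ttk, the kinase that starts checkpoint signalling. The median over the 5 checkpoint genes was -0.05.

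Cdc20, the activator of the anaphase-promoting complex, separated the KO libraries from each other. It had 57.6, 60.1, 63.0, 232 and 195 CPM in Cep120 KO libraries, against 62.2, 57.2 and 56.0 CPM in controls. Libraries 2, 4 and 5 matched the controls, and libraries 6 and 7 stood more than 3-fold above them. The log2 fold change was 1.06 (SE 0.44, edgeR adjusted p = 0.109). Without libraries 6 and 7 it was 0.04 (edgeR adjusted p = 0.889), and without libraries 4 and 5 it was 1.47 (edgeR adjusted p = 0.0389). Ube2c, the enzyme that feeds ubiquitin to that complex, was likewise highest in libraries 6 and 7, at 335 and 276 CPM, against 184 to 196 CPM in controls (log2 fold change 0.28, SE 0.24), and it shares 22.8% of its exon bases with Tnnc2 on the opposite strand.

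The 3 cytokinesis genes were higher in libraries 4 and 5 than in libraries 6 and 7. Prc1, which bundles midzone microtubules, had 111, 177, 165, 77.1 and 90.4 CPM in Cep120 KO libraries 2, 4, 5, 6 and 7, against 79.7 to 98.0 CPM in controls (log2 fold change 0.53, SE 0.25, edgeR adjusted p = 0.153). Libraries 2, 4 and 5 lay above every control, and 11.1% of the exon bases of Prc1 are shared with Rccd1 on the opposite strand. Anln, an actin scaffold of the contractile ring, had 21.5, 37.6, 39.9, 19.7 and 24.5 CPM in Cep120 KO libraries, against 13.9 to 22.5 CPM in controls (log2 fold change 0.67, SE 0.28, edgeR adjusted p = 0.11). Ect2, which switches on the GTPase RhoA at the cleavage plane, had 85.6, 61.1, 64.8, 17.6 and 29.8 CPM in Cep120 KO libraries, highest in library 2 and lowest in libraries 6 and 7, against 51.6 to 79.2 CPM in controls (log2 fold change -0.36, SE 0.38, edgeR adjusted p = 0.527). Over all 35 genes, libraries 6 and 7 were both at least 2-fold above libraries 4 and 5 for Cdc20, Cenpa, Cenpf, Cenpe and Incenp (5 genes; 13% of all genes) and at least 2-fold below them for Ect2 alone (9.58% of all genes). Libraries 6 and 7 are the ones with high Six2 reads and a low sum of ureteric bud markers. Of those markers, Ret, Wnt11, Gata3, Cdh1 and Epcam were lower in them than in any other library. Hoxb7 was not, at 77.4 and 91.3 CPM. Pax2 went the other way, at 61.9 and 54.6 CPM, against 11.1 to 27.1 CPM in all others.

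Leaving out each pair of Cep120 KO libraries therefore changed which genes were called. Without libraries 4 and 5, the 6 called mitosis genes were Cdc20, Cenpf, Kif4, Cenpe, Incenp and Mki67, and 12% of all genes were called. Without libraries 6 and 7, the 5 called were Kif11, Kif4, Cenpe, Prc1 and Mki67, and 5.48% of all genes were called. Mki67, Cenpe and Kif4 were called in both. With libraries 4 and 5 summed to 1 library the count was 6 (8.34% of all genes). The log2 fold change of Mki67 was 3.32 without libraries 4 and 5 and 2.74 without libraries 6 and 7 (edgeR adjusted p = 0.0368 and 0.0456). That of Incenp was 3.07 and 1.39 (edgeR adjusted p = 0.0335 and 0.0599). Library 2 set alone against the controls gave -0.78 for Mki67. That fit takes its whole spread from the other groups, and with 1 KO library it called few genes of any kind (edgeR, 0.0415%), so its calls are not read here.

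**Figure D3:**
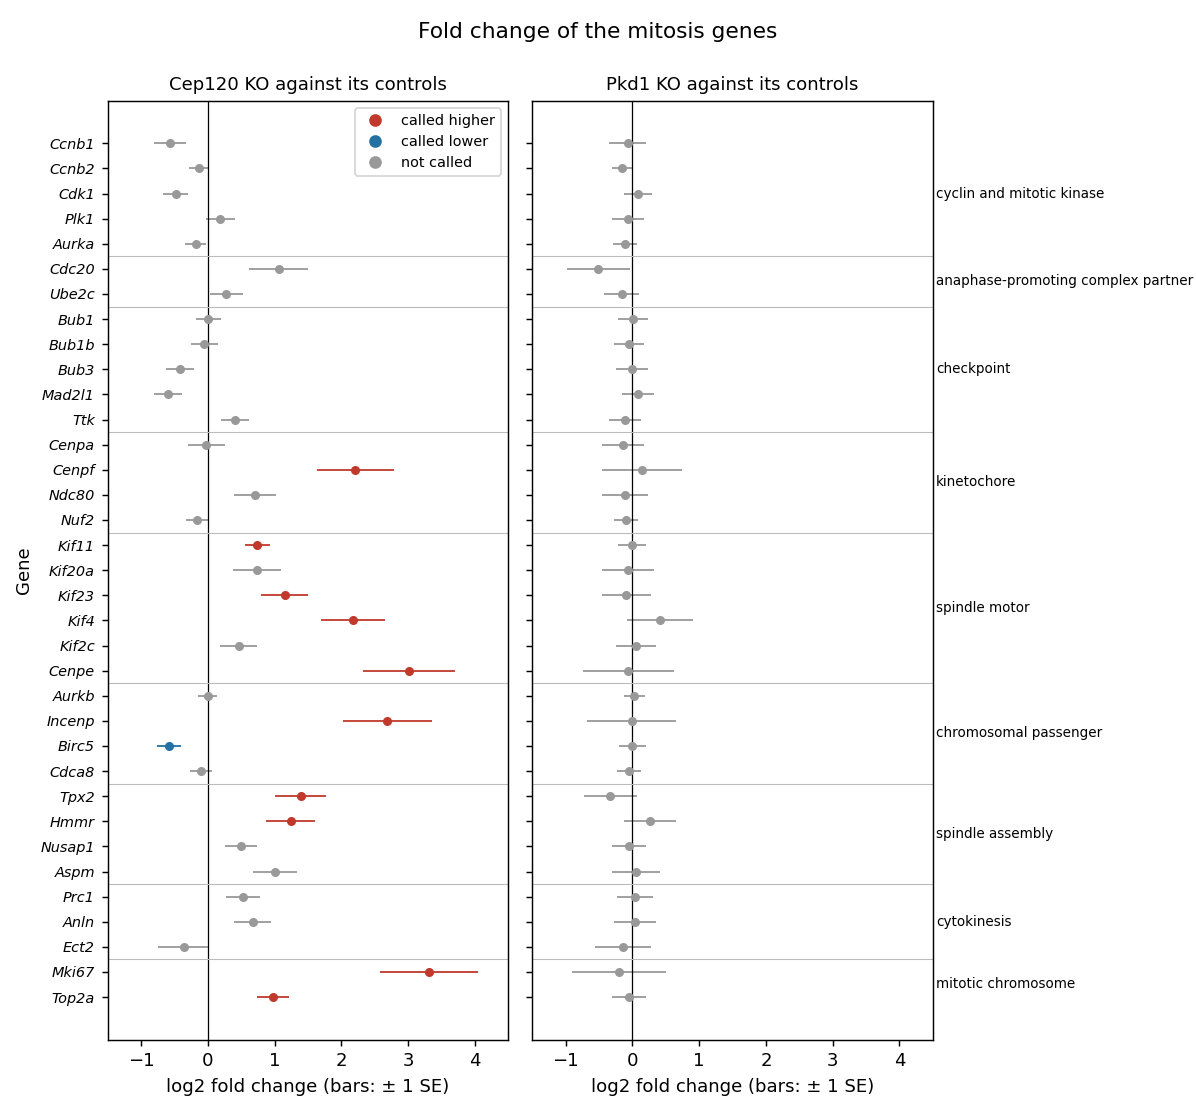
Log2 fold change of each mitosis gene (points, bars of 1 SE) in Cep120 KO against its controls (left) and Pkd1 KO against its controls (right), with genes called higher in red, lower in blue and not called in gray. On the left 10 genes are red, led by Mki67 at 3.31, and Birc5 is blue; on the right no gene is called and all values lie between -0.51 and 0.41.

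In Pkd1 KO against its controls, no mitosis gene was called with edgeR, 0 of 35 passed an unadjusted p under 0.05, and DESeq2 and limma-voom called none. Over all genes, edgeR called 0%, DESeq2 0.0178% and limma-voom 0.00593%, and 1.53% had an unadjusted p under 0.05. The log2 fold changes ran from -0.51 for Cdc20 to 0.41 for Kif4, with a median of -0.05 (all genes, -0.01). Cdc20 had 60.5, 52.8 and 42.5 CPM in Pkd1 KO libraries, against 82.6, 77.2 and 62.1 CPM in controls, and was the mitosis gene with every KO library below every control (6.19% of all genes). Kif4 had 11.8, 9.27 and 9.82 CPM in Pkd1 KO libraries, against 8.59, 5.72 and 8.89 CPM in controls, 1 of 2 mitosis genes with every KO library above every control (4.88% of all genes). Mki67 had 7.31, 7.82 and 6.02 CPM in Pkd1 KO libraries, against 7.84, 6.50 and 10.0 CPM in controls, so the groups overlapped (log2 fold change -0.20, edgeR adjusted p = 1). Because all 14 libraries share 1 estimate of the spread, the SE of Mki67 in this comparison was 0.71.

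The difference between the Cep120 and Pkd1 effects was tested directly. No mitosis gene passed with edgeR (0% of all genes called, smallest adjusted p of a mitosis gene 0.176), and 11 of 35 had an unadjusted p under 0.05, against 20.4% of all genes. DESeq2 called 4 mitosis genes (5.39% of all genes), Cenpe, Incenp, Tpx2 and Mki67, all with the higher value in the Cep120 comparison, and limma-voom called 21 (26% of all genes). The edgeR result rested on library 2: without it, 16 mitosis genes passed, 12 with the higher and 4 with the lower value in the Cep120 comparison (18.5% of all genes, smallest adjusted p of a mitosis gene 0.000343), while leaving out any other single library gave 0. Whether the 2 effects differ thus depends on that library and on the tool. The controls of the Cep120 line set against those of the Pkd1 line gave 0 called mitosis genes with edgeR, DESeq2 and limma-voom (0.124, 0.498 and 0.776% of all genes; with edgeR 0.107% higher and 0.0178% lower), with log2 fold changes from -0.62 to 0.36 and a median of -0.11. At an unadjusted p under 0.05, 0 of 35 passed (4.89% of all genes). For 4 mitosis genes every library of the Cep120-line controls lay above every Pkd1-line control (11.5% of all genes), and for 4 every one lay below (9.99%).

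Fold changes in Cep120 KO were larger for mitosis genes with longer transcripts. Across the 35 genes, Spearman's rho between the log2 fold change and the length of the longest annotated transcript (GENCODE M21) was 0.38, and across 16862 genes tested it was 0.37. These points share their libraries, and genes are not independent replicates. By that length, none of the 7 genes with transcripts shorter than 2500 nt was called, with a median log2 fold change of -0.00 (all genes of that length, -0.23, with 2.3% called higher). Of the 22 genes from 2500 nt to under 5000 nt, 6 were called higher and 1 lower, with a median of 0.48 (all genes, 0.19, with 8.67% called higher). Of the 6 genes of 5000 nt or longer, 4 were called higher, with a median of 1.60 (all genes, 0.57, with 20.1% called higher). Those 4 were Cenpf (11130 nt), Mki67 (10061 nt), Cenpe (7910 nt) and Top2a (5221 nt), and the other 2 were Aspm (9867 nt) and Mad2l1 (7557 nt).

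Length did not order the genes fully. Incenp, at 3449 nt, had a log2 fold change of 2.69, while Bub1, at 3421 nt, had 0.01, and Cdca8, at 3358 nt, had -0.10. Cdc20, at 1793 nt, lay at 1.06. The longest transcript is often not the main one in these cells. Weighted by transcript TPM in the controls of both lines, the mean length was 1834 nt for Mad2l1, 3777 nt for Cenpf and 2208 nt for Top2a. Both called genes thus leave the longest class. For 26 mitosis genes the transcript table held at least 80% of the gene's TPM, and of these only Mki67, at 10061 nt, is in that class. The transcript shares of Cenpf differed in Cep120 KO libraries 4 to 7 (given at the end), so its 3777 nt describes the controls. Of the 13 mitosis genes with weighted lengths under 2500 nt, 3 were called higher, Top2a, Kif23 (2097 nt) and Incenp (1358 nt), with a median log2 fold change of -0.02, and of the 12 from 2500 nt to under 5000 nt, 5 were called higher, with a median of 0.71. With TPM-weighted lengths rho was 0.49 over those 26 genes, and with lengths implied by the deposited counts and TPM of the same controls it was 0.53 over all 35. The rho with GC content was 0.02 over the 35 genes and 0.17 over all genes. In single libraries, relative to the controls, the rho of the mitosis genes with length was 0.44, 0.44, 0.29 and 0.34 in Cep120 KO libraries 4, 5, 6 and 7 and 0.06 in library 2. In the 9 other libraries it ran from -0.39 to 0.40. In Pkd1 KO it was 0.35 across the 35 genes, whose fold changes were all small, and -0.09 across all genes.

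**Figure D4:**
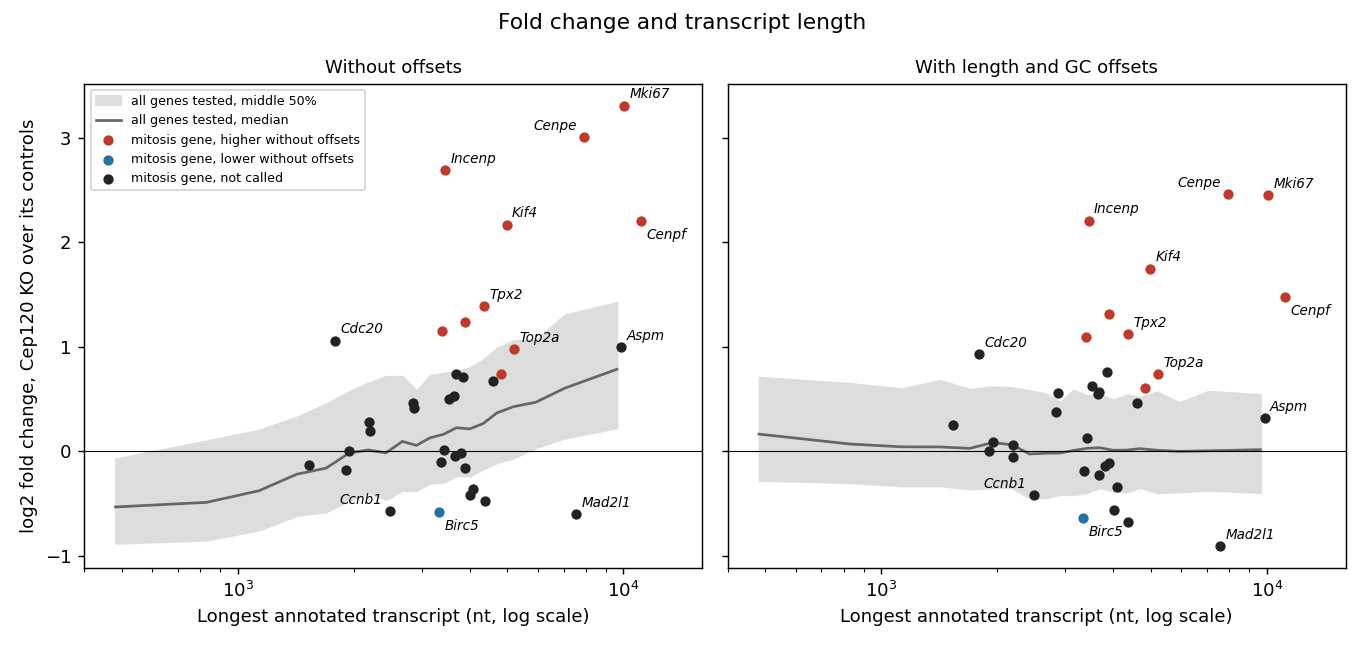
Log2 fold change in Cep120 KO over its controls (y) against the longest annotated transcript (x, nt, log scale) for the 35 mitosis genes (points) and for all genes tested (line, median in 20 bins of length; gray band, interquartile range), without (left) and with (right) offsets for length and GC content. The gray line climbs from left to right on the left panel and is flat on the right, where Mki67, Cenpe and Incenp still lie above 2.

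A fit with an offset for the length and GC trend of each library took the trend out of the genome as a whole, with a rho of -0.04 over all genes and 0.28 over the mitosis genes. In that fit no mitosis gene was called (edgeR, smallest adjusted p 0.0578) and 103 of all genes were (0.61%). The values of the leading genes were smaller but kept their direction. Mki67 was 2.45 (SE 0.59, edgeR adjusted p = 0.062), Cenpe 2.46 (SE 0.62, 0.064), Incenp 2.21 (SE 0.58, 0.0654) and Kif4 1.75 (SE 0.40, 0.0578). Aspm was at 0.32 (SE 0.24, edgeR adjusted p = 0.404). The median was 0.06 for mitosis genes shorter than 2500 nt, 0.50 for those from 2500 nt to under 5000 nt and 1.11 for those of 5000 nt or longer, against 0.06, 0.01 and 0.01 for all genes of these lengths.

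The deposited TPM values, which divide each gene by its length, gave another view of the genes that were lower by count. They did not take out the length trend between the groups. All-gene medians of the log2 fold change of TPM + 1 were 0.24 for genes shorter than 2500 nt and 0.50 from 2500 nt to under 5000 nt. For genes of 5000 nt or longer the median was 0.67. Birc5 had 208, 223, 198, 191 and 185 TPM in Cep120 KO libraries 2, 4, 5, 6 and 7, against 210, 206 and 189 TPM in controls, and the groups overlapped (log2 fold change of TPM + 1, -0.01, limma adjusted p = 0.967). Ccnb1 and Mad2l1 were likewise at 0.01 and -0.04 on that scale (limma adjusted p = 0.962 and 0.817). Cdk1 had 316, 322, 295, 341 and 320 TPM in Cep120 KO libraries, against 273, 306 and 273 TPM in controls (0.17, limma adjusted p = 0.239). On that scale 24 mitosis genes were called higher and none lower (28.1% of all genes called), but the median of all genes stood at 0.42 and that of the mitosis genes at 0.91. Relative to that median Birc5, Ccnb1 and Mad2l1 were again below. Mki67 had 0.376, 9.87, 9.54, 16.7 and 15.7 TPM in Cep120 KO libraries, against 0.627, 0.824 and 0.339 TPM in controls (2.44, limma adjusted p = 0.0211, with a pseudocount of 1 that understates low genes).

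The promoter elements were also counted by call. TTTGAA was found in 7 of the 8 mitosis genes that were called higher and have a listed promoter, and in 17 of the 22 that were not called. CCAAT was found in 8 of 8 and in 16 of 22. Birc5, the gene called lower, had neither string. Only these exact strings were searched, so other forms of the elements could have been missed in any promoter. With so few genes in each class these counts are a description only.

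Other genes of the same machinery, from lists put together by function, were counted in the same way, beside 8.4% of all genes called higher, 6.26% called lower and a median of 0.12 over all genes. Of 20 other motor, spindle and cytokinesis genes, 11 were called higher in Cep120 KO and none lower, with a median of 0.79. The leading genes were Psrc1, a spindle protein at 1.37 (SE 0.26, edgeR adjusted p = 0.029), Kif15, a motor that can stand in for Kif11, at 1.08 (SE 0.21, edgeR adjusted p = 0.029) and Ckap5, a microtubule polymerase at 1.54 (SE 0.36, edgeR adjusted p = 0.0299). Kif15 had 21, 38.3, 34.6, 30.1 and 34.7 CPM in Cep120 KO libraries, against 15.4, 16.3 and 13.4 CPM in controls. As for Kif11, every KO library, library 2 included, was above every control (6.41% of all genes). Of 8 condensin genes, 2 were called higher, Smc4 at 2.42 and Smc2 at 1.74, the core pair that compacts chromosomes. Smc4 had 21.6, 65.7, 61.5, 177 and 162 CPM in Cep120 KO libraries, against 22, 17.2 and 15.6 CPM in controls, the same steps as in Cenpe and Incenp.

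Of 31 other kinetochore and centromere genes, 4 were called higher and 1 lower, with a median of 0.12, equal to that of all genes, among them Nsl1 at 1.13 and Spdl1 at 1.05, both called higher. Of 17 other cyclin, kinase and separase genes, 2 were called higher, Sgo2a at 1.47 and Mad1l1 at 1.31, and 1 lower. The lower gene was Pttg1, or securin, the inhibitor of separase, which had 46.2, 42.2, 43.6, 40.6 and 38.0 CPM in Cep120 KO libraries, against 83.8, 68.3 and 68.6 CPM in controls. All 5 KO libraries, library 2 included, lay below every control, as for 8.75% of all genes (log2 fold change -0.80, SE 0.15, edgeR adjusted p = 0.029). Of 16 genes of the anaphase-promoting complex, 1 was called higher and 3 lower, Anapc10 at -0.89, Anapc11 at -0.90 and Anapc13 at -0.60. Of 23 cell cycle transcription genes, 3 were called higher and 1 lower. Those named were Foxm1, the activator of G2 and M genes, at 1.29, Nfya, a subunit of NF-Y, at 1.13 and Rbbp4, a subunit of MuvB, at -0.70.

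In Pkd1 KO none of these 6 lists held a called gene (edgeR). The smallest p-values within them belonged to Nsl1 at -0.47, Tacc3 at -0.27, Sgo1 at -0.27, Ncaph at -0.24, Anapc2 at 0.24 and Rb1 at -0.80, each with an edgeR adjusted p of 1.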

How the data were processed

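The authors deposited estimated counts of reads per gene, log2 CPM and TPM for the same 14 libraries, and a table of transcript TPM. Per the submitters' processing notes the tools include DRAGEN and the build mm9, with no version or role; the sources used here do not give the other steps. The deposited estimated counts were rounded to whole numbers, 287 repeated identifiers were dropped, and 16876 of 55487 genes passed filterByExpr (edgeR 4.0.16, R 4.3.3, minimum count 10). Libraries were scaled by TMM, and CPM in the text is so scaled. All 14 libraries entered 1 quasi-likelihood fit of 4 means, which left 10 degrees of freedom. SE is the log2 fold change divided by the root of the F statistic. Alternatives used DESeq2 1.42.0, limma 3.58.1 (voom with quality weights, or limma-trend on the deposited log2 CPM and on log2 of the deposited TPM + 1), spline offsets (5 degrees of freedom) for transcript length and GC content, and fits without single libraries or pairs. The scripts were tested on simulated data. Gene positions, lengths and overlaps are from GENCODE M21 (GRCm38), matched by Ensembl identifier, and promoters from RefSeq (GRCm38.p6), matched by symbol; the files' own coordinates were not used. The mitosis genes and the other lists were chosen with earlier results of these data known. All 35 mitosis genes are named; from each other list the text gives up to 3 called genes, by smallest adjusted p, or else the 1 gene of lowest p. One gene that this rule names is not reported here. Library numbers of the Pkd1 line did not pair the samples.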

Additional observations from a re-analysis of the deposited data

Results flagged for a closer look

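For 6 of the 35 mitosis genes, library 2 lay far from the other 4 Cep120 KO libraries by Dixon's test for 5 values, in which the gap to the nearest value is divided by the whole range and compared with 0.71. Over all genes tested, 6.71% had library 2 apart in this way, against 17.1% of the mitosis genes, and all genes share the same libraries, of which 4 and 5 were nearly alike. Chance flags about 1 in 20 groups when any of the 5 libraries may stand apart. The shares given here count library 2 alone, for which chance flags fewer. Cdk1 was highest there at 307 CPM, against 170 to 200 CPM in libraries 4 to 7. Ndc80 was lowest at 14.6 CPM, Kif23 at 16.3 CPM, Tpx2 at 26.2 CPM, Hmmr at 12.7 CPM and Top2a at 125 CPM. Library 2 was within the range of the 3 controls for Cdk1, Tpx2, Hmmr and Top2a and below it for Ndc80 and Kif23.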

How the results depend on the processing

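The count of mitosis genes called in Cep120 KO was 11 in the model of all 14 libraries, and 11 with DESeq2 size factors, 10 with no filter on low counts, 13 with the DESeq2 Wald test and 14 with limma-trend on the deposited log2 CPM (all-gene median 0.45). It became 24 with limma-voom and 24 with limma-trend on log2(TPM + 1), an alternative chosen after seeing the data. It was 0 with length and GC offsets, 0 in a fit of the 2 groups alone, 6 without libraries 4 and 5, 6 with libraries 4 and 5 summed, and 5 without libraries 6 and 7. A fit in which library 2 stood alone for the KO also gave 0, but 1 library left little room for calls (7 of all genes). It ran from 0 to 21 when 1 library was left out. The cause was not tested. Mki67, Cenpe, Cenpf, Kif4, Incenp and Top2a were each called in 9 of those 14 fits, Kif11 and Tpx2 in 7, Hmmr in 2, and Kif23 and Birc5 in 1. Values near 0 can change sign by noise, so the SE is given with library 2 alone. There the sign turned for 22 of the 35 mitosis genes, among them 7 of the 11 called ones, Cenpf (-0.38, SE 0.35), Kif23 (-0.45, SE 0.28), Kif4 (-0.01, SE 0.37), Incenp (-0.11, SE 0.40), Tpx2 (-0.32, SE 0.31), Hmmr (-0.22, SE 0.39) and Mki67 (-0.78, SE 0.48). On log2(TPM + 1) it turned for 11 mitosis genes, 5 of them called on that scale, Ccnb2 (0.51), Aurka (0.48), Nuf2 (0.47), Aurkb (0.64) and Cdca8 (0.50), beside a median of 0.42 over all genes. For the difference between the Cep120 and Pkd1 effects the count of 0 became 4 with DESeq2 and 21 with limma-voom, and ran from 0 to 16 without single libraries, the 16 without Cep120 KO library 2 (18.5% of all genes called) and 0 without any other. Counts for Pkd1 KO and for the controls of the 2 lines were 0 under every alternative run. The rho with transcript length stayed between 0.28 and 0.53. Same-numbered Pkd1 KO and control libraries did not deviate together (r of -0.045, -0.029 and -0.124), and a fit of the Pkd1 line with the replicate number as a block called 0 mitosis genes. No paired analysis was possible for Cep120 because its groups share only the number 2. Low counts limit Mki67, Cenpe, Incenp, Kif4, Aspm and Cenpf in controls and in library 2. The transcript table held under 80% of the TPM of 9 mitosis genes.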

Other observations

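The transcript table also separated the Cep120 KO libraries in Cenpf, a pattern picked out after its values were seen. Transcripts annotated with a retained intron, which keep intron sequence and are not translated into the full protein, took 77.2% of the transcript TPM of Cenpf in Cep120 KO library 2 and 10.9, 8.88, 8.98 and 9.16% in libraries 4, 5, 6 and 7, against 27.9, 43.8 and 64.9% in controls. The shares were 63.0, 51.1 and 44.5% in Pkd1 KO, against 74.6, 75.8 and 60.7% in its controls. Libraries 4 to 7 lay below all others. These are the authors' isoform estimates, from 1.83 to 4.18 TPM for the gene in the 10 other libraries, and no test was made.

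Some genes of the other lists did not overlap between all 5 Cep120 KO libraries and the controls. Securin, Anapc10, Anapc11, Anapc13 and Rbbp4 were among those wholly below, as were 8.75% of all genes. Others, such as Kif15, lay wholly above, as did 6.41% of all genes. Anapc10, the subunit through which the anaphase-promoting complex recognizes its substrates, had 46.0, 36.2, 31.2, 27.9 and 29.5 CPM in Cep120 KO libraries 2, 4, 5, 6 and 7, against 67.5, 66.2 and 56.5 CPM in controls (log2 fold change -0.89, SE 0.18, edgeR adjusted p = 0.029).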
